A study of Mus musculus with 4 samples.

Results

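In mouse heart, 580 protein-coding genes had an H3K27ac peak within 1 kb of an annotated transcription start inside the gene. No peak was called within 1 kb of their annotated 5′ end. They were taken from the authors' list of replicated peaks. Acetylated and unacetylated mean here with and without a peak within 1 kb in that list, so signal below calling is not excluded. In the other 3 lists, 46 of these genes had a peak at the 5′ end. A peak was included when it lay within 1 kb of a transcript start more than 5 kb downstream of the gene's 5′ end, the gene had no peak within 1 kb of that 5′ end, and the peak was not within 1 kb of the 5′ end of another protein-coding gene. The rule gave 1008 peaks, 1.6% of the 63061 in the list and 2.31% of its covered length. Their genes are 6.10% of the 9504 protein-coding genes that have any start more than 5 kb inside, and 18.7% of the 3109 such genes without a peak at the 5′ end. Presence and absence of peaks chose these genes, so their number, fold and width are given as descriptions and no test was run on them.

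The hearts came from female mice at 2 months of age, of the strain B6CASTF1/J, a cross of C57BL/6J with CAST/EiJ. All 4 libraries belong to 1 group, for which no treatment is named. It has 2 biological replicates, pooled from 2 heart samples apiece, and the 2 technical replicates of each had been joined before peaks were called. Both pools carry the same donor identifier, so differences between them may be technical. There is no other condition, and transcription was not measured.

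Acetylation of lysine 27 of histone H3 marks nucleosomes beside active promoters and at active enhancers. Many genes have alternative promoters, and the use of an internal one can change the untranslated leader alone or remove the start of the protein. Heart and skeletal muscle are known for such use: the small ankyrin of Ank1, the muscle form of Smyd1 and the kinase-anchoring product of Camk2a all begin inside their genes. Many vertebrate promoters lie in CpG islands, stretches where the CG dinucleotide has not been lost and which are often active in many tissues, while CpG-poor promoters are more often tissue-restricted.

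The 150 bases before 8 internal starts are shown because they run from CpG-rich to CpG-poor, with the unacetylated 5′ ends of Ptp4a3 and Hk1 for contrast. Each runs 5′ to 3′ on the gene's strand of GRCm38 (mm10), from the reference genome, and ends at the base before the annotated start. Capitals mark CG.
Ptp4a3 internal start, chr15:73748224-73748373, plus strand: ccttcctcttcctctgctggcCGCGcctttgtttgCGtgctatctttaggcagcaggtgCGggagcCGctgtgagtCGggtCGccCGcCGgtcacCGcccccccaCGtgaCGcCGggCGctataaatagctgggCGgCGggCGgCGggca
Ptp4a3 5′ end, chr15:73722995-73723144, plus strand: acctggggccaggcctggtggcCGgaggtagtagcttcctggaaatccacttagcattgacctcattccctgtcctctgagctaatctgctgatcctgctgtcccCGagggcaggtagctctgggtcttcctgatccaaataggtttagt
Sri internal start, chr5:8056377-8056526, plus strand: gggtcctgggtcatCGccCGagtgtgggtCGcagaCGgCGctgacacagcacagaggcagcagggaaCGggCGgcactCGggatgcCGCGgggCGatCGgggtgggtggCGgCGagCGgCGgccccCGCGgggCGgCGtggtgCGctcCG
Runx1 internal start, chr16:92697329-92697478, minus strand: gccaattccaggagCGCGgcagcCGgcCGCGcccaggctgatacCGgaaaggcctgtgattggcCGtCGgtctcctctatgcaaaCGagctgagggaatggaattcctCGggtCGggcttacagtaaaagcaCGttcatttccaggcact
Hk1 internal start, chr10:62340543-62340692, minus strand: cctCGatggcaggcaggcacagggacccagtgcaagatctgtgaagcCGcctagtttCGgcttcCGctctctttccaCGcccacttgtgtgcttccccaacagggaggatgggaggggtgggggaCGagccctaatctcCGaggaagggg
Hk1 5′ end, chr10:62379909-62380058, minus strand: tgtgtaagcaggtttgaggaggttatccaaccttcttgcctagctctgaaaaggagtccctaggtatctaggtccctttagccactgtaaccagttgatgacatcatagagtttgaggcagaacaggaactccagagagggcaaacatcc
Ckm internal start, chr7:19410875-19411024, plus strand: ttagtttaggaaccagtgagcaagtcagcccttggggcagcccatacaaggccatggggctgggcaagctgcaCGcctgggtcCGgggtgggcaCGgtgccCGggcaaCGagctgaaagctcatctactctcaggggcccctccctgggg
Smyd1 internal start, chr6:71262282-71262431, minus strand: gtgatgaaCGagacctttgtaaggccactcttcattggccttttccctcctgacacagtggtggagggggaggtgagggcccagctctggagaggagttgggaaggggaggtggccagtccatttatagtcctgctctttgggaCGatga
Myl3 internal start, chr9:110763496-110763645, plus strand: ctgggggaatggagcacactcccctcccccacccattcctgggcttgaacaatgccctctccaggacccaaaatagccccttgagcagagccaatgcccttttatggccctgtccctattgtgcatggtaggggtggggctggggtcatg
Lipe internal start, chr7:25390107-25390256, minus strand: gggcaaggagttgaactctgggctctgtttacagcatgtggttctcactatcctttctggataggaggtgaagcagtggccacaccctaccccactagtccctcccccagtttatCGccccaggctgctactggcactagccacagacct
The stretches before the internal starts of Sri, Ptp4a3 and Runx1 held 22, 18 and 12 CG dinucleotides. Hk1 was between them and the muscle starts with 7, and Ckm had 5. Smyd1 had 2, Lipe 1 and Myl3 0. The 5′ ends of Ptp4a3 and Hk1 held 2 and 0. The letters TATAAA, the TATA box, stood before the internal starts of Ptp4a3 and Smyd1, on either strand, and the CArG box, the consensus of serum response factor, before that of Myl3. In Ptp4a3 the same bases are also part of a match to the consensus of the MEF2 muscle factors. Not every motif match at these starts is listed.

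The position of the peaks along 8 of the genes is drawn to scale in the maps. In Ank1, Runx1, Hk1 and Sri the first peak downstream of the 5′ end was the one at the internal start, and it was the strongest of the gene. Smyd1 differed: a peak of fold 26.6 lay 49.2 to 54.1 kb from the 5′ end, at no annotated start of Smyd1. It was stronger than the internal-start peak of fold 14.3. The fold here is the authors' ratio for each peak, read as enrichment over a control.

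**Figure D1:**
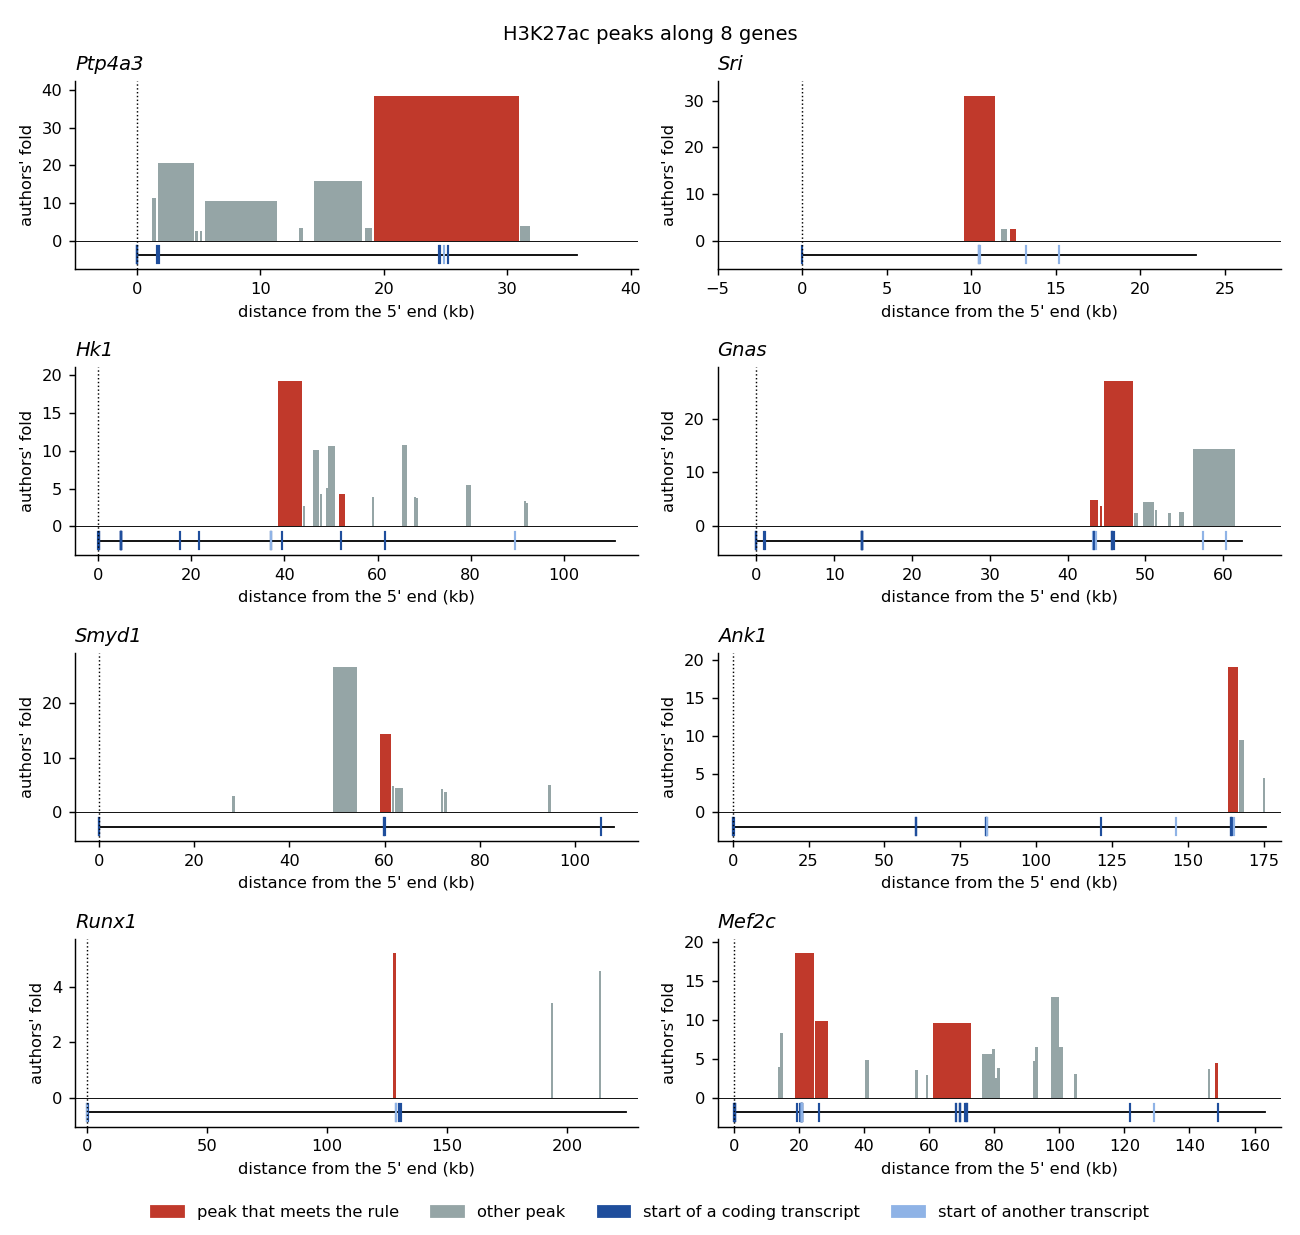
H3K27ac peaks of the replicated list along 8 genes, with distance from the annotated 5′ end in kb on the x axis and the authors' fold on the y axis; bars span each peak, red for those that meet the rule, and ticks mark annotated transcript starts, dark for coding. No bar touches the dotted line at the 5′ end, while a red bar stands at an internal start in each gene.

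The tissue matched its label at the markers tested. All 7 heart muscle markers, 4 of 4 endothelial, 4 of 4 fibroblast and 3 of 3 mural markers had a peak at a start, while none of the 3 markers each of macrophage, lymphocyte, neuron and liver did. The 4 lists held 55831 to 63494 peaks, and their read depth is unknown. In a whole tissue, a peak carried by few cells and one weaker in all cells cannot be told apart, so an internal and a 5′ start used in different cell types of the heart are not separated here.

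At the thresholds of the rule, Dcdc2b and Rbbp6 were just inside with internal starts 5009 and 5014 bp from the 5′ end, and Pef1 and Blcap just outside with 4998 and 4943 bp. Of the 5′ ends, those of Myl3 and Prodh had their nearest peak at 1017 and 1030 bp, and those of the excluded Mrps24 and Sept4 at 948 and 926 bp. Most were not near the edge. The nearest peak was more than 10 kb from the 5′ end in 309 genes (53.3%), with a median of 10.7 kb, and within 2 kb in 39 genes (6.72%). In 46 genes (7.93%) another annotated start between 1 and 5 kb from the 5′ end did have a peak, so the upstream part of those genes was not free of acetylated starts. Ptp4a3, Rbbp6 and Lipe are among these 46. In Ptp4a3, 2 coding starts 1.65 and 1.78 kb from the 5′ end lay at peaks of fold 11.3 and 20.5.

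Per gene, the internal start of the strongest peak lay a median of 21.8 kb from the 5′ end, with quartiles of 9.84 and 57.8 kb and a range of 5.01 to 1762 kb. It was 5 to 10 kb away in 148 genes, 10 to 50 kb in 272, 50 to 100 kb in 79 and more than 100 kb in 81. The median fold of the strongest peak was 9.57, 9.10, 9.38 and 10 in these 4 classes, a narrow range. CpG-rich internal starts made up 53.4%, 49.3%, 39.2% and 35.8% of the classes. A start was called CpG-rich when the observed/expected CpG ratio was at least 0.6 and the GC content at least 50% in the 500 bp around it.

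**Figure D2:**
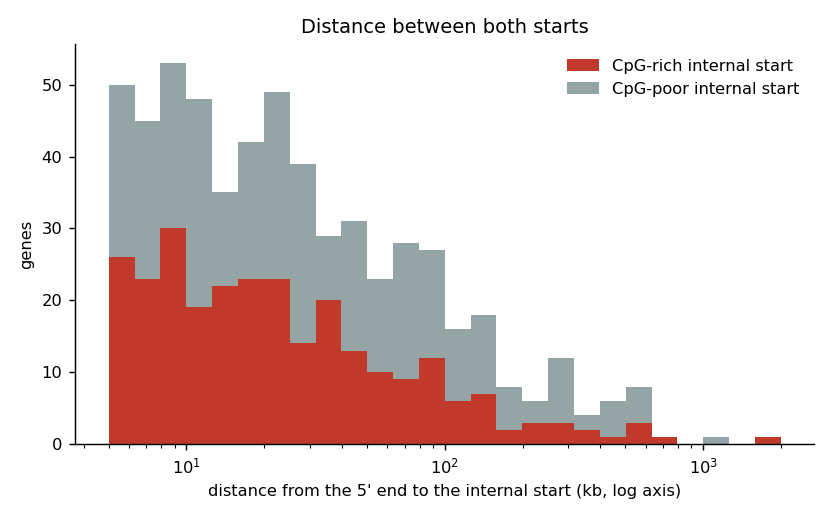
Number of genes by distance from the 5′ end to the internal start of the strongest peak, in kb on a log axis, with CpG-rich internal starts in red and CpG-poor ones in grey, stacked. Most genes lie below 100 kb, and the grey part takes a larger share at long distances.

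Most genes had a single peak that met the rule (339 genes), 147 had 2, 46 had 3 and 48 had 4 or more. Shroom3, an actin-binding protein of epithelial shape, had the most with 11, followed by Frmd4a with 10, Synpo, another actin-associated protein, with 9, and Iqsec1, an exchange factor for ARF GTPases, and Rgs3 with 8 each. In 227 genes (39.1%) further peaks lay between the 5′ end and the internal start. The median distance from summit to start was 274 bp, and 59.6% of the peak and gene pairs had the start inside the peak. Both values follow in part from the rule, which takes only peaks within 1 kb of a start. Of several such starts, the one nearest the summit was used. In 58.1% of the pairs the summit lay downstream of the start. Of the summits, 37.6% lay in an annotated exon.

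By fold the internal-start peaks stood between 5′ end peaks and distal ones. Their median fold was 6.87 (quartiles 4.17 and 12.3), against 5.20 for 2796 internal-start peaks of genes whose 5′ end was also acetylated, 10.9 for 13366 peaks at 5′ ends and 3.89 for 37273 peaks more than 2.5 kb from any start. Median widths in the same order were 999, 984, 1131 and 577 bp. The overlap of the groups is wide, as the plot of fold by position shows.

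**Figure D3:**
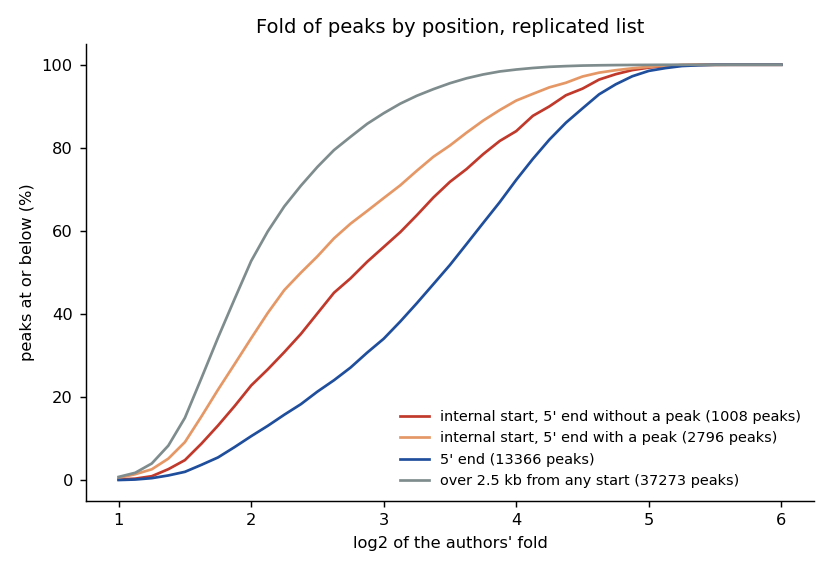
Cumulative share of peaks (%) by log2 of the authors' fold for 4 groups of peaks in the replicated list. The red line of internal-start peaks in genes without a 5′ end peak runs between that of 5′ end peaks (blue) and that of distal peaks (grey), to the right of internal-start peaks in genes with a 5′ end peak (orange).

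Because H3K27ac marks enhancers as well as promoters, the label of promoter was compared with the annotation of the starts. The start nearest the summit belonged to a protein-coding transcript in 573 of the 1010 peak and gene pairs (56.7%), to a processed transcript in 19.7%, to a retained intron in 17.7% and to a nonsense-mediated decay transcript in 5.84%. In 257 pairs (25.4%) no coding transcript began within 1 kb of the peak. These peaks had a median fold of 4.64 and a width of 694 bp, against 8.34 and 1093 bp for the 753 pairs with a coding start. For these pairs the files hold nothing that separates an internal promoter from an enhancer near an annotated start. Of the 1008 peaks, with or without a coding start, 105 (10.4%) lay within 1 kb of the 5′ end of a non-coding gene, 58 of them antisense genes and 7 microRNA genes. For these the peak cannot be assigned to either gene. Use of an internal start as a promoter was therefore not measured here, and the genes are described by their acetylated internal starts.

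The unacetylated 5′ ends were less often those of an APPRIS principal transcript than the 5′ ends of other genes. APPRIS marks the principal protein isoform of a gene from conservation and structure, and does not measure how much a transcript is used. A coding transcript began at the 5′ end in 487 of the 580 genes (84.0%). A principal transcript began at the 5′ end, within 1 kb of it, in 246 of the 580 genes (42.4%), against 90.8% of 6395 genes with an acetylated 5′ end and 81.2% of 2529 genes with neither an acetylated 5′ end nor an internal-start peak that met the rule. The 5′ end was defined by 1 transcript alone in 325 genes (56.0%), against 16.7% and 39.3% in the same groups, and in 93 genes no coding transcript began there. At the acetylated internal starts a principal transcript began in 336 genes (57.9%). RefSeq, an annotation made separately, had a start in 466 of the genes: at the internal site only in 206 (44.2%), at the 5′ end only in 116, at both in 118 and at neither in 26.

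On this basis the genes fall into classes. In 273 genes (47.1%) a principal transcript began at an acetylated internal start and not at the 5′ end. Fold and internal CpG ratio are those of the strongest peak and its start. In genes with several peaks, the principal transcript may begin at another of them. For the 273 genes the median fold was 11.2, and the median observed/expected CpG was 0.77 at the internal start and 0.25 at the 5′ end. In 183 genes (31.6%) a principal transcript began at the 5′ end only, with a median fold of 6.26 and CpG ratios of 0.33 and 0.36. Both places had a principal transcript in 63 genes, with a median fold of 10.4, and neither had one in 61, with 6.82. Hif1a (fold 25.7), the oxygen-regulated transcription factor, and Ckm (15.1), muscle creatine kinase, belong to the first class; Hk1 and Runx1 belong to the second, in which the main annotated product starts at the 5′ end that had no peak. Hif1a was picked after its values were seen.

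Over all 580 genes the internal start was the more CpG-rich of the pair in 395 (68.1%). The median observed/expected ratio was 0.58 at internal starts and 0.29 at the unacetylated 5′ ends, and 273 and 111 of them were CpG-rich (47.1% and 19.1%). For scale, 1320 other internal starts of the same genes that had no peak had a median of 0.26, with 3.26% CpG-rich. Acetylated 5′ ends of all genes had 0.79, with 75.3% CpG-rich, and acetylated internal starts of genes with an acetylated 5′ end had 0.30, with 18.2%. All starts of protein-coding genes together had 0.46, with 40.7%. The 5′ ends without a peak in the 2529 eligible genes that did not meet the rule had 0.31, with 24.6%. Low CpG at an unacetylated 5′ end was thus not particular to the 580 genes. CpG-rich internal starts carried the stronger peaks: their median fold was 11.6 and width 1310 bp, against 6.86 and 1093 bp at the 307 CpG-poor ones. By gene, 78.0% against 40.1% had a principal transcript at this or another acetylated internal start. The 580 genes included 233 with a CpG-rich internal start and a CpG-poor 5′ end, 236 with both poor, 71 with only the 5′ end rich and 40 with both rich.

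**Figure D4:**
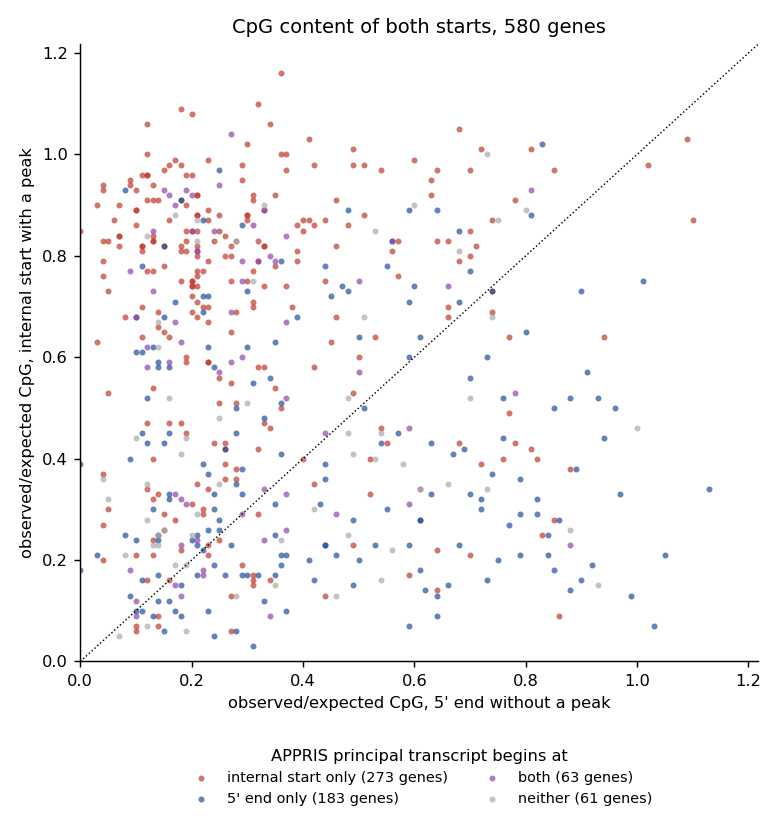
Observed/expected CpG ratio in 500 bp around the unacetylated 5′ end (x) and the acetylated internal start of the strongest peak (y), 1 point per gene. Colour shows where an APPRIS principal transcript begins, counting any acetylated internal start of the gene. The dotted line marks equal values. Of the 580 points, 395 lie above the line, and the 273 red points gather at the upper left.

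The GC box and the ETS site were more frequent at the internal starts than at the 5′ ends, and other motifs ran either way. All 10 motifs were searched by letters or consensus on both strands in the 300 bp from 250 bp before to 50 bp after the start, and a match is only a description of the sequence. The GC box GGGCGG, bound by SP and KLF factors, was in 46.6% of the internal starts and 23.8% of the 5′ ends, against 38.5% of all starts of coding genes. The ETS site CCGGAA was in 15.2% and 6.21%, against 16.8%. The TATA box TATAAA ran the other way with 6.03% and 9.83%, against 11.5%, as did the NF-Y box CCAAT with 29.0% and 37.2%, against 34.8%. The MEF2 consensus, bound by the muscle factors of that name, was in 23 internal starts (3.97%) and 10 of the 5′ ends (1.72%), against 2.71%. The CArG box was in 2.07% and 1.21%, against 1.37%. The letters AGATAA, bound by GATA factors, stood in 8.28% and 11.6%, against 9.96%. The site of TEAD factors, GGAATG, stood in 14.8% and 15.5%, against 13.2%. The E-box CACGTG was in 5.69% and 6.72%, against 7.06%, and the site of estrogen-related receptors, TCAAGGTCA, in 0.69% and 1.38%, against 0.464%.

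The annotated start codons of transcripts from both places were compared. A transcript with an annotated start codon began at both places in 372 genes. Such transcripts were not limited to those annotated as protein-coding. In 179 of the 372 genes (48.1%) at least 1 start codon was shared by transcripts from both places. In the other 193 (51.9%) none was shared. Myl3, Mef2c and Mbnl1 share one; Hk1, Gnas, Ank1, Smyd1, Erg and Pde4b do not.

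The 12 genes with the highest fold all had a CpG-rich internal start and none had a CpG-rich 5′ end; in 8 the principal transcript began internally. Ptp4a3, a protein tyrosine phosphatase, was first with a fold of 38.5 in the replicated list, 32.7 in the list of biological replicate 1 and 44.7 in that of replicate 2. Its peak was 11.7 kb wide and its start 25.2 kb from the 5′ end. Msra, a methionine sulfoxide reductase that repairs oxidised proteins, had 34.9, 30.6 and 39.9 in the same order of lists. Ppp2r5a, a regulatory subunit of protein phosphatase 2A, had 34.9, 28.8 and 42.6.

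Gpx4, the peroxidase that reduces lipid peroxides in membranes, had 34.1, 28.8 and 27.3. Hdac4, a histone deacetylase that represses MEF2 factors in muscle, had 33.4, 23.2 and 40.1 with an internal start 15.4 kb inside. Sgk1, a kinase induced by serum and glucocorticoids, had 33.3, 28.9 and 32.0 at a start 112 kb inside. These 6 had an overlapping peak in both single-replicate lists. The other 6 were Mical3, an enzyme that oxidises actin, the splicing regulator Mbnl1, Dennd6a, the calcium-binding protein Sri (sorcin), which regulates the ryanodine receptor, the small GTPase Rhog and the ubiquitin ligase Rbbp6. Their folds in the replicated list ran from 29.5 to 32.0.

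The widest peaks that met the rule were at other genes, apart from Ptp4a3. Adgrg1, an adhesion G protein-coupled receptor, had 1 peak of 17.9 kb with a fold of 16.3, at an internal start 26.1 kb inside whose observed/expected CpG was 0.16. Nfic, a nuclear factor I protein, had 1 of 13.4 kb among its 4 peaks. Mef2c had 1 of 11.6 kb, Pde2a 1 of 10.1 kb, Coq8a, a protein of coenzyme Q synthesis, 1 of 9.89 kb, Tm4sf1 1 of 9.78 kb and Filip1 1 of 9.57 kb. In this set of 8 genes the internal start of the strongest peak, which is not always the widest, was CpG-rich in 2.

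Of the 6 genes with the most distant internal start, 4 had a CpG-rich 5′ end and 3 a CpG-rich internal start. Among all 580 genes these were 111 (19.1%) and 273 (47.1%). Ptprd, a receptor phosphatase of neurons, had a peak of fold 3.79 at a start 1762 kb inside, with observed/expected CpG of 0.98 there and 1.02 at the 5′ end. Rbfox1, a splicing factor of muscle and neurons, had 12.3 at 1184 kb. Etl4, Celf2 and Zfhx3 had 12.8, 16.6 and 17.3, and Sgcd, the delta subunit of the sarcoglycan complex of muscle membranes, 12.1 at 609 kb.

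Among genes of heart muscle function, counts by list are read against the 6.10% of all eligible genes. Lists and their sizes are of genes with a start more than 5 kb inside. Sarcomere, Z-disc and M-band genes had 3 of 35 (8.57%), calcium handling genes and ion channels 4 of 40 (10%), and transcription factors 7 of 61 (11.5%). The shares were higher for the dystrophin complex and large cytoskeletal linkers with 9 of 34 (26.5%), cyclic nucleotide and kinase signalling with 10 of 40 (25%), lipid and glucose metabolism with 8 of 29 (27.6%) and genes with known internal promoters with 11 of 38 (28.9%). Vascular and matrix genes had 2 of 49 (4.08%), blood and immune genes 3 of 21 (14.3%), skeletal muscle genes 1 of 11 (9.09%), neuronal genes 3 of 27 (11.1%) and liver and epithelial genes 0 of 6. The lists were chosen with results of these data known and were not tested.

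The 3 sarcomere genes had CpG-poor starts at both places. Myl3, the essential light chain of the ventricle and slow muscle, had a fold of 18.1, with 14.8 in replicate 1 and 22.3 in replicate 2, at a start 21.8 kb inside. Its 5′ end had a peak within 1 kb in the replicate 2 list, so it met the rule in replicate 1 alone. Smyd1, a methyltransferase needed for myofibril assembly, had 14.3, with 13.5 and 16.5, at 60.0 kb, and its 5′ end was 28.2 kb from the nearest peak. Sorbs2, a Z-disc adaptor, had 15.4, with 10.8 and 17.2, at 151 kb. Ckm, on the skeletal muscle list but a major enzyme of heart too, had 15.1, with 12.4 and 18.1, at 6.25 kb. Its 5′ end is that of a non-coding transcript.

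Mb, myoglobin, was picked after its values were seen and had 16.9, with 13.9 and 21.1, at 28.7 kb.

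The linker genes were mostly long genes with a late start. Ank1, which links spectrin to membranes, had 19.0 (15.6 in replicate 1 and 23.2 in replicate 2) at the start of short forms 164 kb inside, while its 5′ end lay in CpG-rich sequence with an observed/expected ratio of 1.00. Macf1, which links actin to microtubules, had 23.9 (20.8 and 31.2) at 272 kb and 6 peaks that met the rule. Ank3 had 11.1 at 527 kb. The microtubule-binding navigators Nav1, Nav2 and Nav3 had 5.36, 10.1 and 9.10. Epb41l3, band 4.1B, had 4.16, and Sspn, sarcospan, had 3.79 and no overlapping peak in the replicate 1 list.

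Among signalling genes Rgs3, which limits G protein signals, had the highest fold with 22.8 (19.4 and 27). Pde4b, a cyclic AMP phosphodiesterase, had 20.2 (22.3 and 24.3) at 483 kb. Mylk, myosin light chain kinase, had 18.6 at 160 kb, where no coding transcript begins. A weaker Mylk peak of fold 3.98, near a coding start 249 kb inside, had no overlapping peak in the replicate 1 list. Smooth muscle is known to make a short product, telokin, from the 3′ part of this gene. Mylk4 had 13.1, the anchoring proteins Akap7 and Akap6 had 8.63 and 5.50, Pde2a, Pde1c and Pde1a had 9.0, 7.58 and 6.07, and Prkar2a, a regulatory subunit of protein kinase A, had 4.27 with no peak in the replicate 1 list.

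Of ion channel and calcium genes, Camk2b had 14.2 (12.4 and 16.9) at 65.9 kb and Camk2a had 9.38 (7.30 and 12.9) at 38.0 kb, both subunits of the calcium/calmodulin kinase. Ano1, a calcium-activated chloride channel, had 5.40 and Cacna1d, an L-type calcium channel of pacemaker cells, 3.70.

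All 7 transcription factors met the rule in both single-replicate lists. Nr3c1, the glucocorticoid receptor, had the highest fold with 29.4 (23.8 and 36.6) at 28.7 kb. Nfic had 25.7 (19.9 and 31.8), Erg, an endothelial ETS factor, 23.7 (20.8 and 27.6) at 127 kb, Sox6 18.7 (14.8 and 25.6) and Mef2c, a regulator of muscle genes, 18.6 (14.8 and 23.5). Hoxb3 had 7.96. Runx1, a regulator of blood cells, had 5.21 (5.52 and 5.84) at 129 kb, its downstream promoter, and its 5′ end was 126 kb from the nearest peak. Internal starts were CpG-rich in 5 of the 7.

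Among metabolic genes Lipe, hormone-sensitive lipase, had 20.3 (15.8 and 18.3) at 8.60 kb, with observed/expected CpG of 0.05. Hk1, hexokinase 1, had 19.2 (12.6 and 26.4) at 39.4 kb, and Gpam, the first enzyme of glycerolipid synthesis, 14.9 (14.3 and 17.5). Lpin1, a phosphatidate phosphatase, had 13.1 (11.2 and 15.7) and Mlxipl, the glucose-responsive factor ChREBP, 12.4 (8.90 and 17.3). Pfkfb2 had 4.64 and Acsl6 3.13, the latter without a peak in the replicate 2 list.

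The other known cases included Gnas, whose internal start for the stimulatory G protein subunit had 26.9 (20.4 and 34.2) at 46.0 kb. Bdnf, a neurotrophin, had 6.07 (4.28 and 9.26) at 18.9 kb. Of the immune genes, Cd2, an adhesion receptor of T cells, had 13.4 (10.9 and 15.9) at 7.55 kb, Lck, a T cell kinase, 5.75 (2.24 and 8.10) and Sla 3.22. The nearest starts for Cd2 and Lck were those of retained-intron transcripts, and none of the 3 lymphocyte markers had a peak. Of the vascular genes Vwf, the von Willebrand factor of endothelium, had 4.45 (2.89 and 5.18) and Ltbp4 2.42, with no peak in the replicate 1 list.

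**Figure D5:**
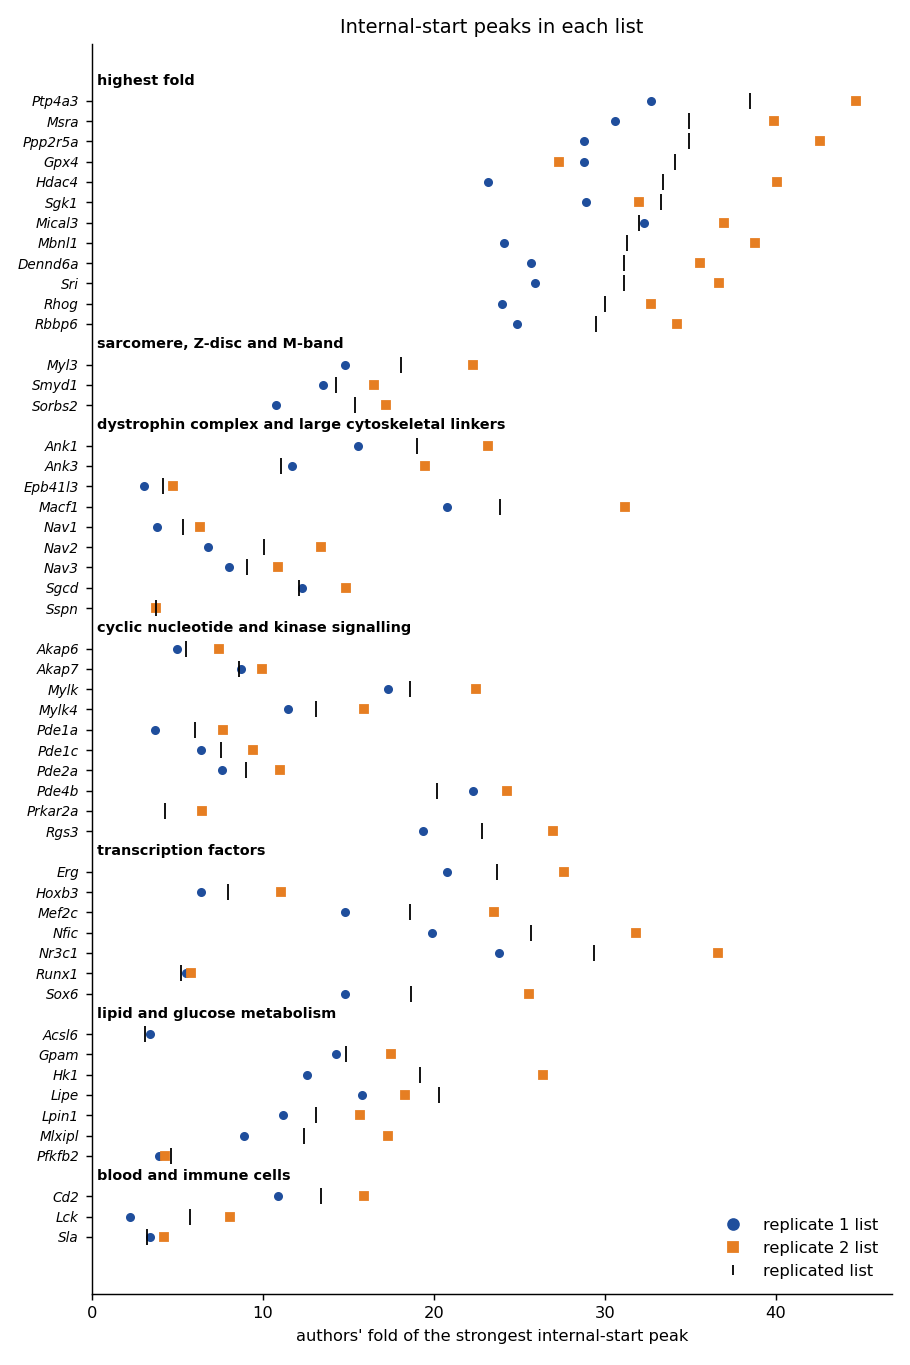
Authors' fold (x) of the strongest internal-start peak of each named gene (y) in the list of biological replicate 1 (circles), of replicate 2 (squares) and in the replicated list (bars), by gene group. A missing symbol means no overlapping peak in that list; each list has its own scale, so circles and squares are shown side by side and not compared.

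The peaks recurred in the lists of single replicates, which were made from the same alignments and so are not independent of the rule. Of the 1008 peaks, 849 (84.2%, exact 95% binomial interval 81.8 to 86.4) overlapped a peak in both lists, against 73.0% of all peaks, 79.0% of internal-start peaks in genes with an acetylated 5′ end and 92.2% of 5′ end peaks. The interval covers counting error only. A further 113 overlapped replicate 2 alone, 18 replicate 1 alone and 28 (2.78%) neither. The 849 had a median fold of 8.44 in the replicated list and the other 159 of 3.19. The single lists have scales of their own, with a median fold over all peaks of 4.75 in replicate 1 and 5.44 in replicate 2, so their values are given side by side and not compared.

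Absence at the 5′ end also differed between the lists. In the replicate 2 list 42 of the 580 genes (7.24%) had a peak within 1 kb of the 5′ end, in the pooled list 21, and in the replicate 1 list 1, which was Cask. In any of the 3 lists it was 46. No gene had such a peak in both single-replicate lists. That follows largely from the rule, which required no such peak in the list made from both replicates. Mical3, Vgll4, Shroom3 and Myl3 are among the 42. Applied to the single lists, the rule gave 573 genes in replicate 1, of which 526 were among the 580, and 582 in replicate 2, of which 523 were. Both lists shared 479 of the 580 (82.6%). Of the 57 genes not found in replicate 2, 42 had a peak at the 5′ end there, and of the 54 not found in replicate 1, 1 did.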

How the data were processed

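H3K27ac was mapped in 4 libraries of 1 group. The authors deposited 4 peak lists on mm10, made from joined technical replicates; the aligner, the peak caller, their versions and read depth were not given in the sources used here. Per the labels, reads of a B6CASTF1/J hybrid were placed on mm10, and any effect was not tested. Each peak has the authors' fold, a ratio, the authors' −log10 p and −log10 q, and the authors' distance in bp from peak start to summit. Folds were compared only within a list; those of the single-replicate lists are printed side by side.

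Starts came from GENCODE M21 and sequence from GRCm38, read with pysam 0.24.0 and indexed with samtools 1.23.1, in Python 3.11.15 with pandas 2.3.3, numpy 2.4.6 and scipy 1.17.1. The 5′ end is the outermost annotated base of a gene on its strand. Finding the members was tested on simulated peaks. Peaks were shared at an overlap of 1 bp or more. CpG ratios used 500 bp around a start.

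Members and gene lists were chosen with earlier results of these data known. Named genes are the 12 with the highest fold, the 8 widest, the 6 longest distances, those on 12 gene lists and those at the thresholds; Hif1a, Mb and genes with many peaks or a 5′ end peak in 1 list were picked after their values were seen. Not every gene so chosen is described. Alternatives changed the windows, distances, lists, filters and annotation.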

Additional observations from a re-analysis of the deposited data

How the results depend on the processing

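Under 14 alternatives the number of peaks ran from 741 to 1180 and that of genes from 457 to 692, within 1.5 times the reported 1008 and 580. The internal start had the higher median observed/expected CpG in all 15 settings tried for it. That median moved from 0.58 to 0.48 with a 2.5 kb window, 0.63 with starts over 2 kb downstream, 0.51 with starts over 10 kb, 0.63 with peaks at or above the median fold, 0.68 with coding transcripts only, 0.67 with support level 1 or 2, 0.52 without peaks at 5′ ends of any gene and 0.52 in 1000 bp windows. At the 5′ ends it moved from 0.29 to 0.28 with a 500 bp window, 0.31 with 2.5 kb, 0.27 with starts over 2 kb, 0.31 with starts over 10 kb, 0.31 above the median fold, 0.28 in the pooled list, with coding transcripts, with support level 1 or 2, without peaks at 5′ ends of any gene and with 5′ ends free of peaks in all lists, and 0.26 in 1000 bp windows. Leaving out replicate 1 or 2 gave 0.58 and 0.60 at internal starts and 0.29 and 0.30 at 5′ ends. The share of pairs with a coding start went from 74.6% to 81.4% above the median fold, 78.6% with support level 1 or 2 and 100% with coding transcripts only, which holds by construction. Median fold moved from 6.87 to 9.48 and median width from 999 to 1416 bp above the median fold, the filter being on fold itself, and fold to 8.34 with coding transcripts only. A median is named here as moved when it changed by more than the standard deviation between the 2 single-replicate lists. That was 1.435 for fold and 273 bp for width, from lists with scales of their own. Over the 14 alternatives fold ran from 5.70 to 9.48 and width from 847 to 1416 bp. The share in both single-replicate lists was 76.5% when 50% of the peak had to overlap. No paired analysis was possible because the series has 1 group. Read depth is unknown, and how many 5′ ends fell just below calling was not tested.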

Other observations

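On the X chromosome 15 of 275 eligible genes met the rule (5.45%), close to the 565 of 9219 on autosomes (6.13%). Their internal starts were CpG-rich in 12 of the 15 and their 5′ ends in none, with median observed/expected ratios of 0.83 and 0.21. Cul4b, a ubiquitin ligase scaffold, had a fold of 17.8 (16.5 in replicate 1 and 21.9 in replicate 2) at a start 11.5 kb inside, and was picked after its values were seen.

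Genes in which both starts were CpG-rich (40) had an unacetylated CpG-rich 5′ end and a median fold of 11.4 for the strongest internal peak. The median was close to this, at 11.6, in the 233 genes with a CpG-rich internal start and a CpG-poor 5′ end. Tjp1, a tight junction protein, had 28.5 (22.8 and 34.0) at 157 kb, with ratios of 1.03 at the internal start and 1.09 at the 5′ end. Smarcd3, the heart- and muscle-enriched BAF60c subunit of chromatin remodelling complexes, had 29.3 (22.5 and 37.3) at 22.4 kb. Abr and Pfdn4 had 29.1 and 28.7. These genes were also picked after their values were seen, and no difference from other genes was tested.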
